A study of Danio rerio with 6 samples.

Results

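Rod photoreceptor genes were examined in whole zebrafish larvae that had been exposed to Lurasidone, an atypical antipsychotic that blocks dopamine D2 and serotonin receptors. The genes were chosen by name: rho, gnat1, gnb1b, gngt1, pde6a, pde6b, saga, sagb, cnga1 and nrl. Of these 10 genes, 9 had a row among the 39214 genes of the expression table, and 8 were expressed strongly enough to be tested. No row carried the name cnga1, and its duplicates cnga1a and cnga1b are described with the other rod genes. The 3 libraries of the control group and the 3 libraries of the Lurasidone group all came from AB wild-type larvae at 5 dpf (days post fertilization). The Lurasidone group received 4 mg/L from 3 hpf (hours post fertilization) per the sample labels, whereas the methods of the study give a later start, and the control larvae were kept in the solvent. Each library was a separate biological replicate, and the number of larvae pooled in a library is not given in the sources used here.

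Rods are the photoreceptors of dim light, and cones those of daylight. In a rod, light isomerizes the chromophore of rhodopsin, which activates the G protein transducin (gnat1, with a beta and a gamma subunit). Transducin releases the inhibition of the cGMP phosphodiesterase (pde6a and pde6b with inhibitory gamma subunits), cGMP falls and a cGMP-gated cation channel closes. Rhodopsin kinase and arrestin then shut the pigment off. In mice the transcription factor Nrl sets the rod fate together with Crx and Nr2e3. Zebrafish larvae at this age see mostly with their cones, while the rods are still maturing.

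Expression was given as FPKM, fragments scaled to the length of the gene and to a library size, so that levels can be compared between genes. That size was not the sum of fragments on genes. The sum was 104% of it in control replicate 2 and 84.5% in control replicate 3. Between 11749887 and 15107664 fragments fell on genes in each library, and log2 profiles correlated at 0.957 to 0.975 within a group and at 0.91 to 0.949 between groups. A gene was called changed where limma on log2(FPKM + 1) gave a p, adjusted by Benjamini and Hochberg's method, no higher than 0.05, and fold changes below are on that scale, which understates those of weakly expressed genes. The methods name both entire larvae and brain as the source of RNA. Genes of muscle (actc1b, 5598 to 9489 FPKM), exocrine pancreas (prss1, 721 to 1296 FPKM) and liver (fabp10a, 90.3 to 236 FPKM) were abundant in all 6 libraries, beside the neuronal gene elavl3 (19.3 to 47.1 FPKM). The other muscle markers differed: ckma was at 170 to 492 FPKM, while mylpfa was nearly absent (0 to 0.255 FPKM). The pancreas gene cpa5 was at 151 to 373 FPKM and was called higher in the Lurasidone group (log2 fold change 0.92, limma adjusted p = 0.0266). Because rods are a small part of a sample with muscle, pancreas and liver, fewer rods and less RNA per rod cannot be told apart.

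Of the 8 tested rod genes, 5 had a log2 fold change below 0 and 3 above, gnat1 only just. Of all 23409 tested genes, 12075 were below 0 and 11334 above. The arrestin gene saga and the G protein beta subunit gene gnb1b fell, which is 2 of the 8 tested members beside 3.90% of all tested genes called lower. None was called higher, beside 5.79% of all tested genes, although pde6a had an unadjusted p under 0.05 in that direction and rho, gnb1b and saga had one in the lower direction, beside 14.1% of all tested genes in each direction. No member was a differentially expressed gene by the stricter rule that also asks for a log2 difference of 1 or more, which 3.83% of tested genes met. At an unadjusted p this stricter rule also gave 0 members. In 3 members every Lurasidone library was below every control library, beside 16.2% of all tested genes, and in 1 member every Lurasidone library was above, beside 17.1%. The median log2 fold change of the 8 members was -0.24 and that of all tested genes -0.02.

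**Figure D1:**
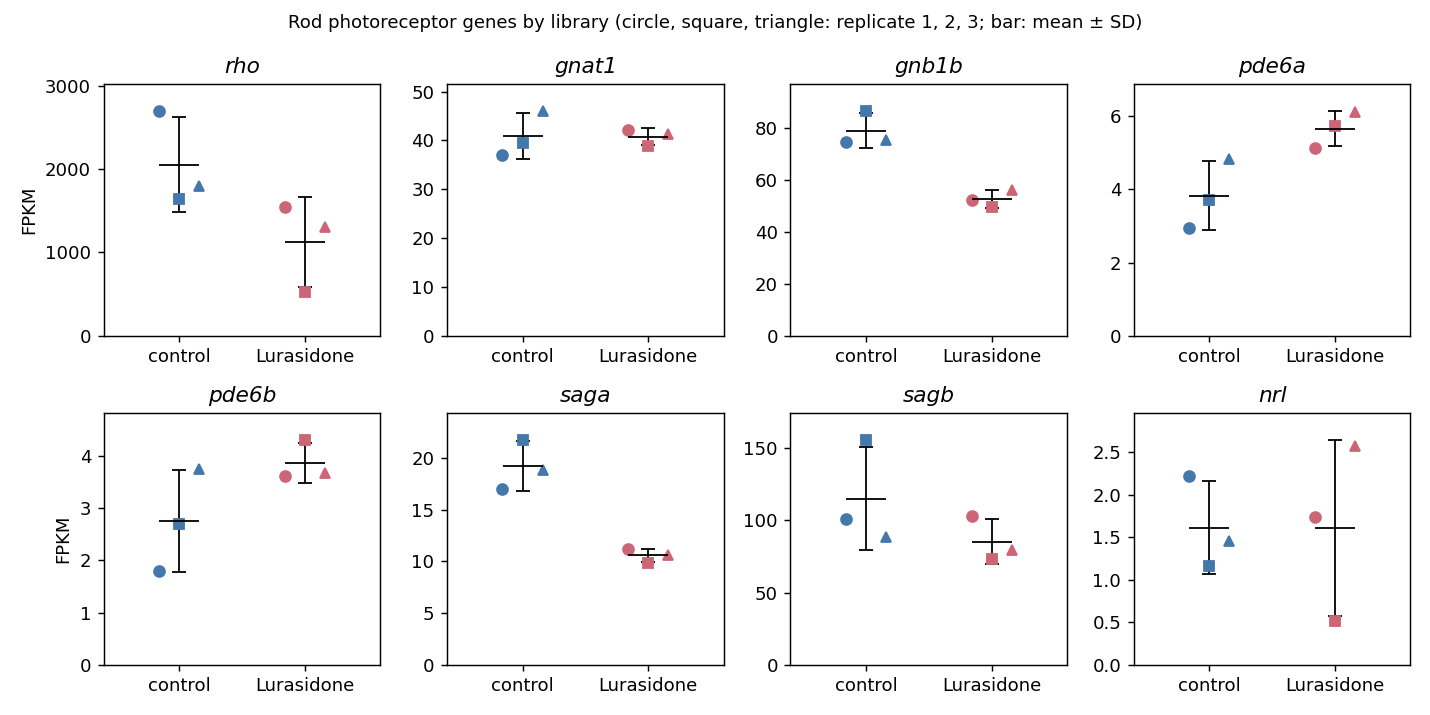
FPKM of the 8 tested rod genes (vertical axes, each from 0) in the control and Lurasidone groups, with replicates 1, 2 and 3 as circle, square and triangle and the mean ± SD as a cross with bars (n = 3). The groups do not overlap for rho, gnb1b and saga, with Lurasidone lower, and for pde6a, with Lurasidone higher. The level of gnat1 lies at about 40.8 FPKM in both groups, and the rho value of Lurasidone replicate 2 (521 FPKM) is far below the rest.

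Rhodopsin, the rod visual pigment, was the most abundant rod transcript. The rho gene (ENSDARG00000002193) lies on chromosome 8 of GRCz11, from 54076195 to 54077740 on the minus strand, and its gene length of 1546 bases equals its span, so the gene model holds no intron. Its level was 2703, 1647 and 1802 FPKM in the control libraries against 1552, 521 and 1307 FPKM in the Lurasidone libraries. Every Lurasidone value lay below every control value, but Lurasidone replicate 1 was only slightly below control replicate 2. The mean was 2051 ± 570 FPKM (SD, n = 3) in the control group and 1127 ± 539 FPKM (SD, n = 3) in the Lurasidone group, a log2 fold change of -0.97 (SE 0.40) with a 95% interval from -1.88 to -0.07. The difference did not pass the test (adjusted p = 0.152, limma). Without Lurasidone replicate 2 the log2 fold change was -0.49 (adjusted p = 0.468, limma), so this library carried a large share of the difference.

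Depth did not limit the rho measurement. It rested on 64293, 29891 and 40461 fragments in the control libraries and on 32057, 10794 and 26776 in the Lurasidone libraries, and the exact Poisson interval of the lowest value ran only from 511 to 531 FPKM, which covers counting error alone. Rhodopsin took 0.426%, 0.245% and 0.330% of all fragments on genes in the control libraries against 0.255%, 0.0919% and 0.225% in the Lurasidone libraries. By mean FPKM it ranked 20 of 39214 genes in the control group and 33 in the Lurasidone group. When the fragments themselves were tested with limma's voom, which weights each value by the precision expected at its count, rho passed the threshold (adjusted p = 0.0475). That fit also held more genes (31117) and did not add 1 FPKM, and which of these changes mattered was not tested. The second Rh1-type opsin gene, rhol, was expressed far lower, at 5.06 ± 1.14 FPKM in the control group and 5.61 ± 2.01 FPKM in the Lurasidone group (SD, n = 3), and its log2 fold change was 0.09 (adjusted p = 0.839, limma).

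Transducin gave 3 different pictures for its 3 subunit genes. The gene for the rod alpha subunit, gnat1 (ENSDARG00000044199, chromosome 6, 42918933 to 42930302, plus strand), was at 37.0, 39.5 and 46.1 FPKM in the control libraries and at 42.2, 38.8 and 41.3 FPKM in the Lurasidone libraries. The groups overlapped fully. The means were 40.9 ± 4.69 and 40.8 ± 1.74 FPKM (SD, n = 3), and the log2 fold change of 0.00 had a 95% interval from -0.34 to 0.34 (adjusted p = 0.997, limma). With that interval the data leave room for a modest change in either direction, and the fold change ranged from -0.065 to 0.0891 when a library was left out.

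The beta subunit gene gnb1b (ENSDARG00000104372, chromosome 6, 53304977 to 53334259, minus strand) codes for a subunit that rods use but that is also expressed widely outside the retina. It was at 74.9, 86.8 and 75.6 FPKM in the control libraries and at 52.3, 49.5 and 56.3 FPKM in the Lurasidone libraries, without overlap. The mean fell from 79.1 ± 6.71 to 52.7 ± 3.41 FPKM (SD, n = 3), which is a log2 fold change of -0.575 (SE 0.15) at an adjusted p of 0.0446 in limma. This call was close to the threshold: it was lost in 5 of the 6 fits that left out a library, all but the one without control replicate 3 (adjusted p from 0.0448 to 0.125 over the 6). The gamma subunit gene gngt1 (ENSDARG00000035798, chromosome 19) was listed at 0 in 5 libraries and had 2 fragments in Lurasidone replicate 2, fewer than the 3 fragments taken as the limit of a measurable level, and it did not reach the 0.5 FPKM in 3 libraries that the test asked for.

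The phosphodiesterase genes had log2 fold changes above 0. The catalytic alpha subunit gene pde6a (ENSDARG00000000380, chromosome 14) was at 2.95, 3.70 and 4.82 FPKM in the control libraries and at 5.15, 5.73 and 6.12 FPKM in the Lurasidone libraries. The lowest Lurasidone value was above the highest control value. The mean was 3.82 ± 0.941 FPKM in the control group and 5.66 ± 0.490 FPKM in the Lurasidone group (SD, n = 3), and the log2 fold change of 0.48 (95% interval 0.07 to 0.89) did not pass the test (adjusted p = 0.126, limma). These levels rested on 173 to 323 fragments in a library.

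The catalytic beta subunit gene pde6b (ENSDARG00000011671, chromosome 21) was at 1.80, 2.70 and 3.75 FPKM in the control libraries and at 3.63, 4.32 and 3.67 FPKM in the Lurasidone libraries. Control replicate 3 lay within the range of the Lurasidone group. The log2 fold change was 0.41 (SE 0.21, adjusted p = 0.238 by limma), and 0.21 without control replicate 1. Both catalytic genes had their lowest value in control replicate 1 and the next in control replicate 2, and their ratio pde6a/pde6b kept to a narrow band, 1.28 to 1.64 in the control libraries and 1.33 to 1.67 in the Lurasidone libraries. The inhibitory gamma subunit genes pde6ga and pde6gb had log2 fold changes of 0.60 and 0.68 (adjusted p = 0.156 and 0.0773, limma). Thus 4 of 4 phosphodiesterase genes were above 0 and 0 of 4 were called, beside 5.79% of all tested genes called higher. With voom pde6gb passed the threshold (adjusted p = 0.0491).

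Arrestin-1, which binds phosphorylated rhodopsin and ends its signal, is encoded by a pair of genes in zebrafish. The gene saga (ENSDARG00000012610, chromosome 2, 5480125 to 5505094, minus strand) was at 17.0, 21.8 and 18.9 FPKM in the control libraries and at 11.2, 9.89 and 10.6 FPKM in the Lurasidone libraries. The groups were clearly apart, and the Lurasidone libraries were close together. The mean fell from 19.2 ± 2.43 to 10.6 ± 0.660 FPKM (SD, n = 3), which is a log2 fold change of -0.80 (SE 0.16) with a limma adjusted p of 0.0149. The lower level was called in 5 of the 6 fits that left out a library, and it was lost without Lurasidone replicate 3 (adjusted p = 0.0538). With both control replicate 3 and Lurasidone replicate 2 left out, which leaves 2 libraries in each group, the log2 fold change was -0.76 (adjusted p = 0.0598).

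Its duplicate sagb (ENSDARG00000038378, chromosome 15) was expressed several times higher, at 101, 156 and 88.6 FPKM in the control libraries and at 103, 73.1 and 79.7 FPKM in the Lurasidone libraries. Only control replicate 2 stood clearly above the others, and the groups overlapped. The means were 115 ± 35.9 and 85.3 ± 15.8 FPKM (SD, n = 3), with a log2 fold change of -0.40 (95% interval -0.93 to 0.13, limma adjusted p = 0.294), and of -0.16 without control replicate 2. The ratio sagb/saga was between 4.70 and 7.16 in the control libraries and between 7.39 and 9.20 in the Lurasidone libraries. On the log2(FPKM + 1) scale the group means of this ratio, chosen after the values had been seen, lay 0.40 apart. The groups overlapped on that scale, with control replicate 2 (2.784) above Lurasidone replicate 2 (2.766). The rhodopsin kinase genes grk1a and grk1b, which act before arrestin, had log2 fold changes of -0.74 and -0.41 (adjusted p = 0.158 and 0.168, limma). All 4 of these shut-off genes were thus below 0, with saga as the only called one.

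The rod fate gene nrl (ENSDARG00000100466, chromosome 20, 661037 to 673579, plus strand) was weakly expressed, at 2.22, 1.16 and 1.46 FPKM in the control libraries and at 1.74, 0.509 and 2.58 FPKM in the Lurasidone libraries. The Lurasidone group held both the lowest and the highest value. The mean was 1.61 FPKM in both groups, with an SD of 0.545 in the control and 1.04 in the Lurasidone group (n = 3), and the 95% interval of the log2 fold change ran from -0.76 to 0.62 (adjusted p = 0.905, limma). The lowest value rested on 10 fragments (exact Poisson interval 0.244 to 0.937 FPKM) and the highest on 50 (1.91 to 3.40 FPKM), so the spread within the Lurasidone group was wider than counting error. A change in nrl was not detectable with these libraries, and its log2 fold change ranged from -0.34 to 0.28 when a library was left out.

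Among the other genes of the rod program the homeobox gene crx, which drives photoreceptor genes in rods, cones and the pineal organ, had the lowest log2 fold change. It was at 29.6, 25.6 and 26.9 FPKM in the control libraries and at 10.3, 5.20 and 12.4 FPKM in the Lurasidone libraries. All Lurasidone values were less than any control value by a wide margin. The mean fell from 27.4 ± 2.04 to 9.30 ± 3.70 FPKM (SD, n = 3), which is a log2 fold change of -1.53 (SE 0.26, adjusted p = 0.0088 by limma), and the call held in all 6 fits that left out a library (adjusted p from 0.012 to 0.0466). The nuclear receptor gene nr2e3, a repressor of cone genes in mouse rods, was at 4.83, 1.19 and 3.19 FPKM in the control libraries and at 0.831, 1.08 and 0.874 FPKM in the Lurasidone libraries (log2 fold change -0.97, limma adjusted p = 0.0806). The photoreceptor regulator samd7 had a log2 fold change of -0.63 (adjusted p = 0.0933, limma).

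The rod cation channel and the rims of the outer segment discs showed mostly negative fold changes that did not pass the test. Of the alpha subunit duplicates of the channel, cnga1a was at 2.33, 2.07 and 1.88 FPKM in the control libraries and at 1.56, 1.15 and 0.669 FPKM in the Lurasidone libraries. The log2 fold change of cnga1a was -0.56 (adjusted p = 0.106, limma), and that of cnga1b was 0.04 (adjusted p = 0.910, limma). The beta subunit genes cngb1a and cngb1b had log2 fold changes of -0.69 and -0.56 (adjusted p = 0.0799 and 0.118, limma). Of the disc rim genes, rom1b (-0.79, limma adjusted p = 0.0715) and prph2b (-0.58, limma adjusted p = 0.072) were close to the threshold, and their duplicates rom1a (0.00) and prph2a (-0.20) were near 0. The calcium sensor gene rcvrna was at 12.5 FPKM in control replicate 3 and between 1.43 and 3.44 FPKM in the other 5 libraries. The other calcium feedback gene, gucy2f, had a log2 fold change of 0.42 without overlap of the groups (adjusted p = 0.168, limma).

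Of the 16 other rod genes found in the table, 15 were tested. By limma 0 were called in either direction, beside 5.79% of all tested genes called higher and 3.90% called lower. At an unadjusted p under 0.05, 3 were higher and 8 were lower, beside the 14.1% of all tested genes in each direction. Further, voom called pde6gb higher and rom1b lower, and the median log2 fold change was -0.51. The called gene crx, shared by rods and cones, is not among these 15 but stands with the fate genes in what follows. The disc rim genes prph2a and prph2b are shared by rods and cones too. Ordered by role, all 4 phosphodiesterase genes were above 0 (0.41 to 0.68), while all 4 shut-off genes (-0.80 to -0.40), 4 of 4 disc rim genes (rom1a only just) and 4 of 4 fate genes (-1.53 to -0.07) were below 0, as were 3 of 4 channel genes. The visual pigment, transducin and calcium feedback roles, with 2 tested genes each, had 1 gene above 0 and 1 below. Of these, gnat1 was above by only 0.0012. The calcium feedback gene below 0 was rcvrna, with its single high value in control replicate 3. The grouping by role was made after the values had been seen and is a description, and its counts depend on the genes picked. Photoreceptor genes left out of it went both ways. Among them rgs9a (0.11), rgs9b (0.07) and abca4a (0.03) were above 0, and rgs9bp (-0.004) and abca4b (-0.38) were below.

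**Figure D2:**
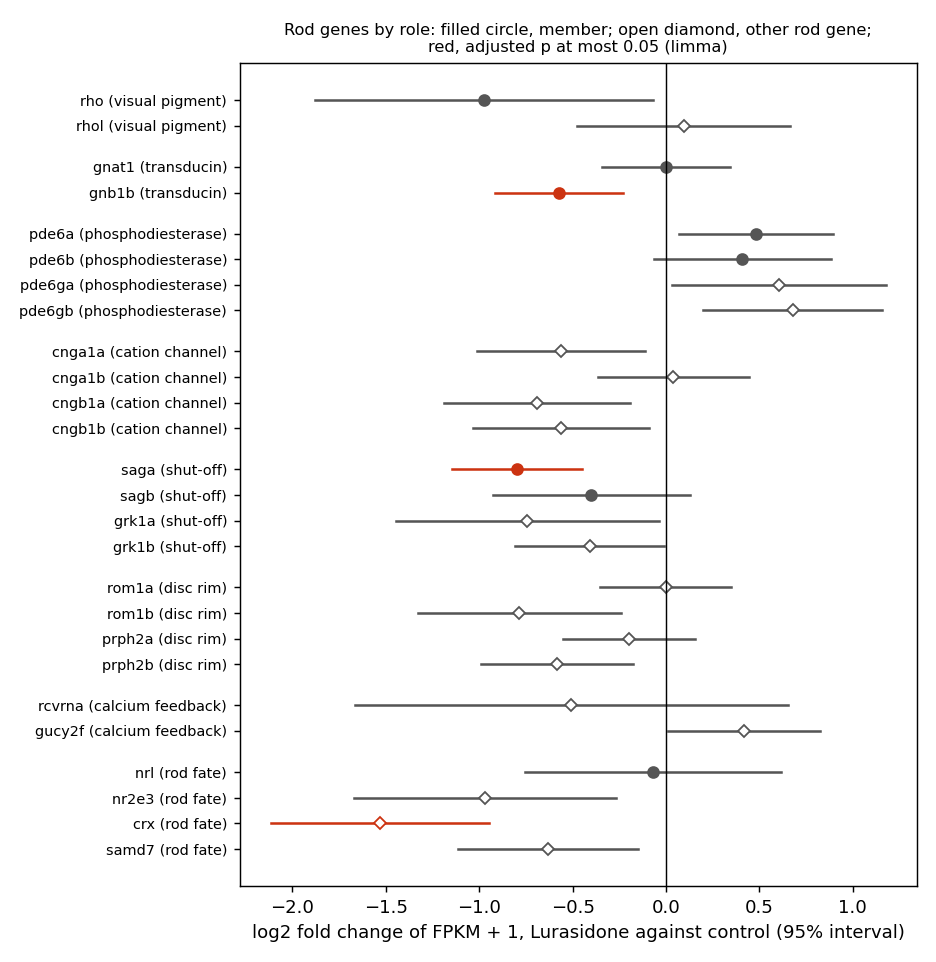
Log2 fold change of FPKM + 1 in Lurasidone against control (horizontal axis, bars are 95% intervals from limma, n = 3 libraries in each group) for 26 genes sorted by role in the rod, with filled circles for the genes chosen by name, open diamonds for other genes of the rod program and red for adjusted p of at most 0.05. The open diamonds include crx, prph2a and prph2b, which rods share with cones. Only gnb1b, saga and crx are red, and the 4 phosphodiesterase genes lie to the right of 0 from 0.41 to 0.68.

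Each rod gene was then set against its cone counterpart within the same library, which removes the library's own scale. Of 14 pairs listed, 11 could be computed, and in 5 of them the groups did not overlap. With 3 libraries against 3 the exact permutation test cannot go below p = 0.1, which is what these 5 pairs reached (two-sided, 0.22 after adjustment over the 11 pairs), so no pair passed the threshold. The ratios are plain FPKM ratios, and differences between groups are on the log2(FPKM + 1) scale.

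The arrestin pairs differed most. The ratio of saga to the cone arrestin gene arr3a was 0.249, 0.292 and 0.244 in the control libraries against 0.0525, 0.0494 and 0.0781 in the Lurasidone libraries, a log2 difference of -2.08. The ratio of sagb to the other cone arrestin gene, arr3b, was 13.8, 21.7 and 8.37 in the control libraries against 3.19, 3.01 and 3.54 in the Lurasidone libraries, a log2 difference of -1.95. Both differences held the cone genes' own rise. The level of arr3a rose from 73.4 ± 4.68 to 183 ± 41.4 FPKM (SD, n = 3, log2 fold change 1.28, limma adjusted p = 0.006), and that of arr3b rose from 8.37 ± 1.92 to 26.4 ± 5.20 FPKM (SD, n = 3, log2 fold change 1.55, limma adjusted p = 0.0027). Both calls held in all 6 fits that left out a library.

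For the transducin alpha pair the Lurasidone libraries were the higher ones. The ratio gnat1/gnat2 was 0.128, 0.124 and 0.165 in the control libraries against 0.193, 0.195 and 0.175 in the Lurasidone libraries, a log2 difference of 0.44, and the cone alpha subunit gene gnat2 was at 296 ± 20.6 FPKM in the control and 218 ± 18.0 FPKM in the Lurasidone group (SD, n = 3, log2 fold change -0.44, limma adjusted p = 0.130). The ratio gnb1b/gnb3b was lower in all Lurasidone libraries by a small amount (log2 difference -0.23, and -0.14 without control replicate 2). For the phosphodiesterases, pde6a/pde6c and pde6b/pde6c differed by -0.17 and -0.24 on the log2 scale with overlapping groups (two-sided exact permutation p = 0.4 and 0.2), and by -0.04 and -0.07 without control replicate 3. As log2 ratios of fragments, all libraries kept, the differences were -0.07 and -0.11. The cone catalytic gene pde6c itself rose (log2 fold change 0.65, limma adjusted p = 0.0277), a call lost without control replicate 1 or any 1 of the Lurasidone replicates (adjusted p up to 0.128).

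Rhodopsin was compared with 4 cone opsins and with exorh, the rod-type opsin of the pineal organ. Only rho/opn1lw2, against a red opsin, separated the groups, with ratios of 47.3, 33.1 and 29.5 in the control libraries against 23.1, 10.01 and 21.6 in the Lurasidone libraries (log2 difference -1.07). Against the ultraviolet opsin opn1sw1 and the blue opsin opn1sw2 the log2 differences were -0.63 and -0.71 with overlapping groups (two-sided exact permutation p = 0.4 and 0.5). Without Lurasidone replicate 2 the differences were -0.68 for rho/opn1lw2, -0.09 for rho/opn1sw1 and -0.23 for rho/opn1sw2, and without control replicate 2 that of rho/opn1sw2 was -0.30. Against opn1mw1, a green opsin, and against exorh the differences were only -0.03 and -0.01, with wide spreads (SD of 0.192 and 0.646 in the control and Lurasidone groups for rho/opn1mw1). The differences for both partners changed sign with the library left out. Both of these partners fell themselves, opn1mw1 with a log2 fold change of -0.94 (adjusted p = 0.0353, limma) and exorh with one of -0.96 (adjusted p = 0.0347, limma). Another green opsin gene, opn1mw2, went the other way at a lower level. Its mean was 5.12 FPKM in the control and 8.53 FPKM in the Lurasidone group (log2 fold change 0.66, limma adjusted p = 0.070). The opn1mw1 call was lost without control replicate 1 or any 1 of the Lurasidone replicates (adjusted p up to 0.143), and the exorh call without control replicate 1 or 3 or Lurasidone replicate 2 or 3 (up to 0.138).

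**Figure D3:**
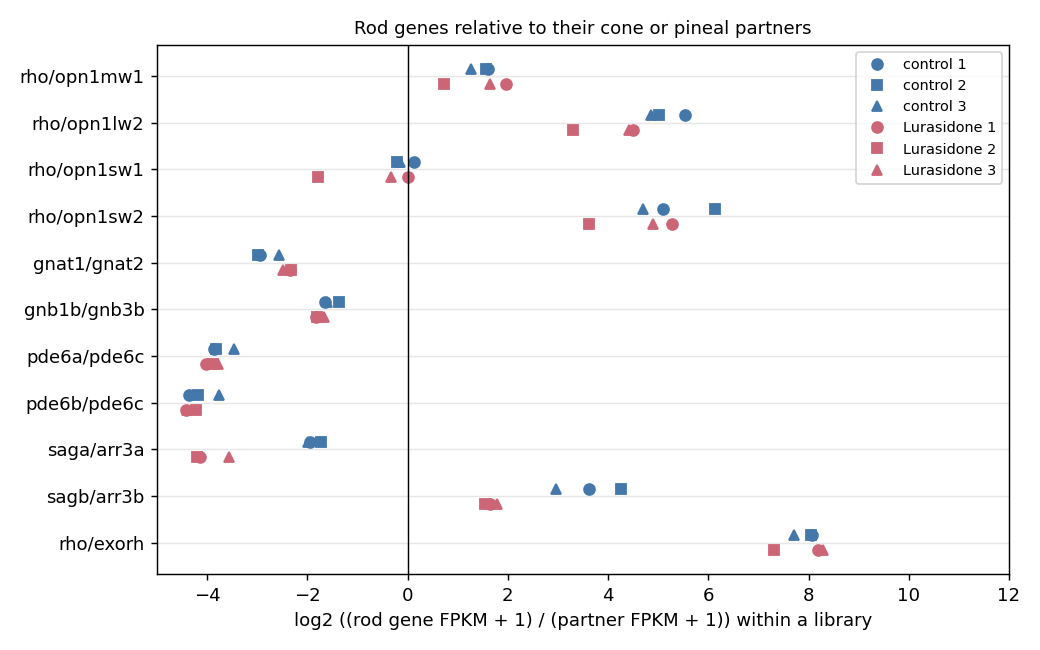
Log2 ratio of each rod gene to its cone or pineal partner within a library (horizontal axis, FPKM + 1) for the 11 pairs, with control libraries in blue above and Lurasidone libraries in red below on each line and replicates 1, 2 and 3 as circle, square and triangle. The blue and red points are farthest apart for saga/arr3a (difference -2.08) and sagb/arr3b (-1.95), and Lurasidone replicate 2 is the lowest point in all 5 rho pairs.

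Further ratios, chosen after the values had been seen and given without a test, restate the members' own differences inside single libraries. The ratio saga/gnat1 was 0.458, 0.552 and 0.409 in the control libraries against 0.266, 0.255 and 0.258 in the Lurasidone libraries, and pde6a/gnat1 was 0.0797, 0.0938 and 0.105 against 0.122, 0.148 and 0.148. The ratio rho/pde6a was 915, 445 and 374 in the control libraries against 301, 90.9 and 214 in the Lurasidone libraries. The groups were apart in these 3 ratios and in rho/gnat1, and they overlapped in rho/saga. Of the ratios to cone genes looked at in the same way, cnga1a/cnga3a was 0.925, 1.20 and 0.617 in the control libraries against 0.491, 0.335 and 0.229 in the Lurasidone libraries, without overlap. The groups overlapped in cnga1b/cnga3a, pde6ga/pde6ha and pde6gb/pde6ha.

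The summed level of the 9 rod genes with a row was 2940, 1959 and 2041 FPKM in the control libraries against 1771, 703 and 1508 FPKM in the Lurasidone libraries. Rhodopsin made up 84.1% to 92.0% of this sum in the control libraries and 74.1% to 87.6% in the Lurasidone libraries, so the sum mostly repeats rho. Without rho the sum was 237, 312 and 239 FPKM in the control libraries against 219, 182 and 200 FPKM in the Lurasidone libraries, again without overlap. When the widely expressed gnb1b was left out too, the sum was 162, 225 and 164 FPKM in the control libraries against 167, 133 and 144 FPKM in the Lurasidone libraries, and the groups overlapped.

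Marker lists of neighbouring cells were read in the same libraries. The summed level of the 17 genes in the list for other retinal neurons was 95.1 to 110 FPKM in the control libraries. In the Lurasidone libraries it was 91.4 to 98.4 FPKM. The list included rx1 and rx2, and the part of photoreceptors and of tissues outside the retina in its sum was not tested. Of the 15 tested, 0 were called higher and 1 lower, beside 5.79% and 3.90% of all tested genes. The lower one was the bipolar cell gene vsx1 (log2 fold change -0.84, adjusted p = 0.0267 by limma). Its call held only without Lurasidone replicate 3 among the fits that left out 1 library (otherwise up to 0.084). Single genes of the retinal neuron list moved both ways under this sum. The mean of rbpms2a was 15.6 FPKM in the control and 20.5 FPKM in the Lurasidone group. For pou4f2 the means were 17.4 and 12.2 FPKM. Of the 15 tested, 3 were higher and 4 lower without overlap of the groups, beside 17.1% and 16.2% of all tested genes. The pineal list lay between 18.7 and 20.9 FPKM in the control and between 11.1 and 15.8 FPKM in the Lurasidone libraries. Its only called gene of 7 tested was exorh, which was lower, beside 3.90% of all tested genes called lower and 5.79% higher. The pineal organ also expresses some of the rod genes described here, and its part in their levels was not tested. The pigment epithelium list ranged from 98.2 to 133 FPKM in the control and from 99.7 to 134 FPKM in the Lurasidone libraries. The pigment gene dct gave 29.1 to 55.2 FPKM of these sums, and the part of other pigment cells of the larva was not tested. In this list rpe65a, the isomerase of the visual cycle, was called higher (log2 fold change 1.03, adjusted p = 0.0368 by limma, held only without Lurasidone replicate 2, otherwise up to 0.109). The retinaldehyde-binding protein gene rlbp1a was called lower (-0.73, adjusted p = 0.0147 by limma, lost without control replicate 1 at 0.0709 and without Lurasidone replicate 3 at 0.0625).

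The lens list varied most between libraries. Its sum was 1461, 2212 and 419 FPKM in the control libraries against 1996, 1160 and 2069 FPKM in the Lurasidone libraries, lowest in control replicate 3 and, within the Lurasidone group, in Lurasidone replicate 2, which was also lowest in rho. All 13 genes of the list had log2 fold changes above 0, from 0.0045 (foxe3) to 1.18 (cryaa). In each of them control replicate 3 had the lowest value of all libraries, and its part in this shared sign was not tested. By limma 0 were called, beside 5.79% of all tested genes called higher, and 1 had an unadjusted p under 0.05, beside 14.1%. The gene cryaa was called by voom (adjusted p = 0.0361). Of 34 tested crystallin genes outside the list, looked up after the values had been seen, 25 were above 0 and 9 below. Of these 34, 1 was called higher (crygm2e) and 0 lower, beside 5.79% and 3.90% of all tested genes. The 9 below included the abundant crygm2d8 (477 FPKM in the control and 328 FPKM in the Lurasidone group, log2 fold change -0.32). The part of the lens content in the rod values was not tested. Without both control replicate 3 and Lurasidone replicate 2 the log2 fold change of rho was -0.57 (adjusted p = 0.279, limma).

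**Figure D4:**
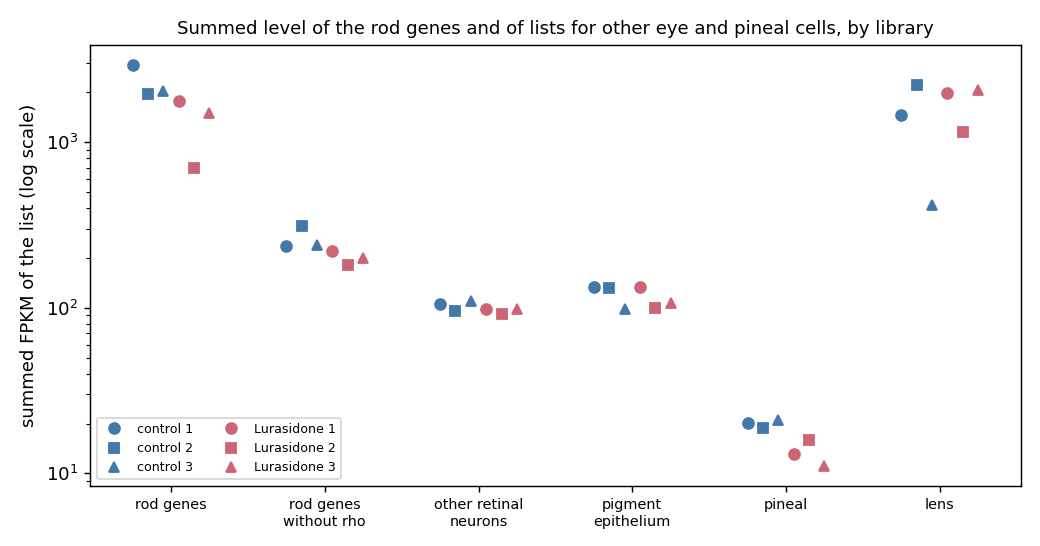
Summed FPKM (vertical axis, log scale) of the rod genes, of the rod genes without rho and of marker lists for other retinal neurons, pigment epithelium, pineal organ and lens, 1 point for each library (blue control, red Lurasidone, replicates 1, 2 and 3 as circle, square and triangle). The rod and pineal sums do not overlap between the groups, the retinal neuron sums stay between 91.4 and 110 FPKM, and the lens sum is lowest in control replicate 3 (419 FPKM).

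Among genes shared by rods and cones, 39 were tested, and 2 were called higher and 3 lower, beside 5.79% and 3.90% of all tested genes. The median was -0.06 on the log2 scale. The lower ones were crx, the retinol dehydrogenase gene rdh8b (-1.08, limma adjusted p = 0.0164) and the recoverin gene rcvrnb (-0.71, limma adjusted p = 0.0432). The higher ones were impg1b, a proteoglycan of the matrix around photoreceptors (0.88, limma adjusted p = 0.0133), and the guanylate cyclase activator gene guca1c (0.72, limma adjusted p = 0.0335). The calls of rcvrnb and guca1c were lost in each of the 6 fits without 1 library (adjusted p up to 0.167 and 0.106). That of rdh8b was lost without control replicate 1 or Lurasidone replicate 1 or 2 (up to 0.0612), and that of impg1b without control replicate 1 or Lurasidone replicate 3 (up to 0.0658). Of 20 cone genes tested, 5 were called higher and 2 lower, beside the same 5.79% and 3.90% of all tested genes. Their median was 0.20, against -0.24 for the rod members and -0.51 for the other rod genes. Of the 5, gngt2a passed the filter only through the Lurasidone group, and without it 4 of 19 were called higher with a median of 0.09. Besides arr3a, arr3b and pde6c, the cone phosphodiesterase gamma gene pde6ha rose (1.07, limma adjusted p = 0.0107). The cone transducin gamma genes, the counterparts of gngt1, went opposite ways: gngt2b fell (-1.43, limma adjusted p = 0.0094), while gngt2a had 0 fragments in the control libraries against 7.85, 1.81 and 1.49 FPKM in the Lurasidone libraries, at least 11.2-fold higher against a limit of 3 fragments in each control library. This bound rested largely on Lurasidone replicate 1 and was 4.96-fold without it. Without control replicate 1 the calls of pde6ha (adjusted p = 0.0565) and gngt2a (0.0704) were lost, and without Lurasidone replicate 2 that of gngt2b (0.0509).

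To see which genes followed rho most closely, log2(FPKM + 1) of 19923 genes was correlated with it over the 6 libraries, as a description. The closest were si_dkey-219c3.2 (Pearson r = 0.999), eif4g3a, arid2, ep400 and braf (0.995), none of them among the photoreceptor lists. Their levels shared the low value of Lurasidone replicate 2, as in arid2, which was at 25.7, 17.0 and 19.5 FPKM in the control libraries and at 17.5, 7.53 and 14.8 FPKM in the Lurasidone libraries. The correlations of the rod members ran from nrl (0.732), gnb1b (0.684), saga (0.657) and sagb (0.514) through gnat1 (0.0661) to pde6a (-0.705) and pde6b (-0.76). The closest genes were picked as the highest of 19923 values over 6 libraries, so genes not picked this way had to rank lower. No link of rho to either set can be read from this. All these correlations share the same 6 libraries and their depth.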

How the data were processed

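RNA-seq libraries of 6 samples were analysed, 3 in each group as named by the sample labels. The authors sequenced paired-end reads and deposited FPKM values with gene lengths for 39214 genes; the labels name the build GRCz11 (danRer11), and the aligner and counter are not given in the sources used here. Columns of unknown samples numbered 0. The other deposited columns, gene annotation, were used for names and positions. Fragments were read back as FPKM times gene length (100% of values whole within 0.05 fragment) and give the depth of each library, 11749887 to 15107664 fragments. Limits and exact Poisson intervals (95%) cover counting error only.

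Genes were tested if 3 or more libraries reached 0.5 FPKM, which left 23409. A limma 3.58.1 model (lmFit, eBayes with trend; R 4.3.3) with a single group term was fitted to their log2(FPKM + 1), and p-values were adjusted over all tested genes. Ratios within a library were compared by two-sided exact permutation tests (scipy 1.17.1). Alternatives were other pseudocounts, filters and normalizations, voom, the replicate block and leaving out libraries, of which the joint removal of control replicate 3 and Lurasidone replicate 2 was chosen after seeing the data. Named genes were the members, their cone or pineal partners and tissue markers. Up to 3 called genes in each direction of every list and the 5 genes most like rho were also named. The remaining genes of the rod roles, opn1mw2 and crygm2d8 were chosen after their values were seen. The members and lists were chosen with earlier results of these data known. Promoters and proteins were not analysed here. Scripts were tested on simulated data, and figures were drawn with matplotlib 3.10.9.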

Additional observations from a re-analysis of the deposited data

How the results depend on the processing

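Of the rod members, 2 were called, and 3 (rho, gnb1b and saga) in each of the 2 voom fits. Only 1 was called without the variance trend, without the filter, after quantile normalization and with the replicate block. With the fold threshold added 0 were called, and 0 to 2 when libraries were left out. Same-numbered libraries deviated with correlations of 0.118, -0.103 and 0.00564, so the replicate number was not taken as a pairing; the replicate block called 1366 genes, and saga stayed called. Over all tested genes 2270 were called, 1330 without the filter and 667 to 2752 when libraries were left out. Without both control replicate 3 and Lurasidone replicate 2 it was 1209. The voom fits, which held 31117 genes, called 2940 with the library sizes of the FPKM and 2839 with the summed fragments. The median log2 fold change of the members was -0.49 with a filter of 5 FPKM, which removed pde6b and nrl, and all genes then had a median of -0.11. With the summed fragments as library sizes, voom gave all genes a median of 0.08, against 0.01 with the library sizes of the FPKM. Signs turned where libraries were left out for gnat1 (-0.065 to 0.12) and nrl (-0.34 to 0.28, and 0.25 without both libraries), for the ratio rho/opn1mw1 (-0.29 to 0.33) and for rho/exorh (-0.19 to 0.30, and 0.19 as a ratio of fragments); the cause was not tested. Rhodopsin passed the threshold in the 2 voom fits (lowest adjusted p 0.0243) and in no other of its 17 alternatives (up to 0.468). The other members kept their direction in all alternatives run, with adjusted p from 0.0064 to 0.0598 for saga, 0.0347 to 0.125 for gnb1b and 0.061 to 0.357 for pde6a. The gene gngt1 held 2 fragments in all, and the cause was not tested.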
